A study of Homo sapiens with 6 samples.

Results

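UACC-812 and T47D are established human breast cancer cell lines, and RNA-seq of 1 library from each line was compared gene by gene. They are 2 of the 6 lines in the series, chosen as a pair because both are known as estrogen receptor-positive ductal lines that differ in amplification of *ERBB2*. UACC-812 is labelled a ductal carcinoma line and was grown in L-15 medium with 2 mM glutamine, 20 ng/ml EGF and 20% fetal bovine serum. T47D is labelled a ductal carcinoma line from a pleural effusion and was grown in RPMI medium with 10% fetal bovine serum. Both were unmodified epithelial cells with no treatment named. Line, medium, serum and added EGF cannot be told apart in this design. There were no replicates of either line, so no difference below has a replicate error, a test or a p-value. In bulk RNA, fewer cells of a type and less RNA per cell cannot be told apart.

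*ERBB2* encodes HER2, a receptor tyrosine kinase with no known ligand of its own that signals by pairing with EGFR, HER3 or HER4. In many breast tumours a segment of the long arm of chromosome 17 that holds *ERBB2* is present in extra copies, and neighbouring genes are carried along. The estrogen receptor, encoded by *ESR1*, is a hormone-activated transcription factor that works in luminal breast cells with FOXA1 and GATA3 and induces genes such as *PGR*, *GREB1* and *TFF1*. DNA copy number, protein and hormone response were not measured in the data used here.

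Values are in a unit read as RPKM, that is, reads scaled to gene length and library size, apparently summed over exons, so only levels of 1 gene between lines are compared. A difference is the log2(value + 1) in UACC-812 minus that in T47D, after subtracting the median difference over all genes. That median was 0.01 as deposited, so values before and after the subtraction were nearly the same. Recovered depths were 25600000 reads for UACC-812 and 29200000 for T47D, and 3 reads in an exon of 150 bases were worth 0.781 and 0.685. These are limits from counting only. Of 16418 genes, 10355 lay within 2-fold of each other, and percentiles 25 and 75 of the difference were -0.62 and 0.82. Genes at least 4-fold higher in UACC-812 numbered 1342 (8.17% of all genes) and genes at least 4-fold lower 756 (4.60%). At a 2-fold limit the shares were 21.0% higher and 15.9% lower, and counts in the gene lists below are read against these shares. As deposited, the 4-fold counts were 1352 and 745.

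**Figure D1:**
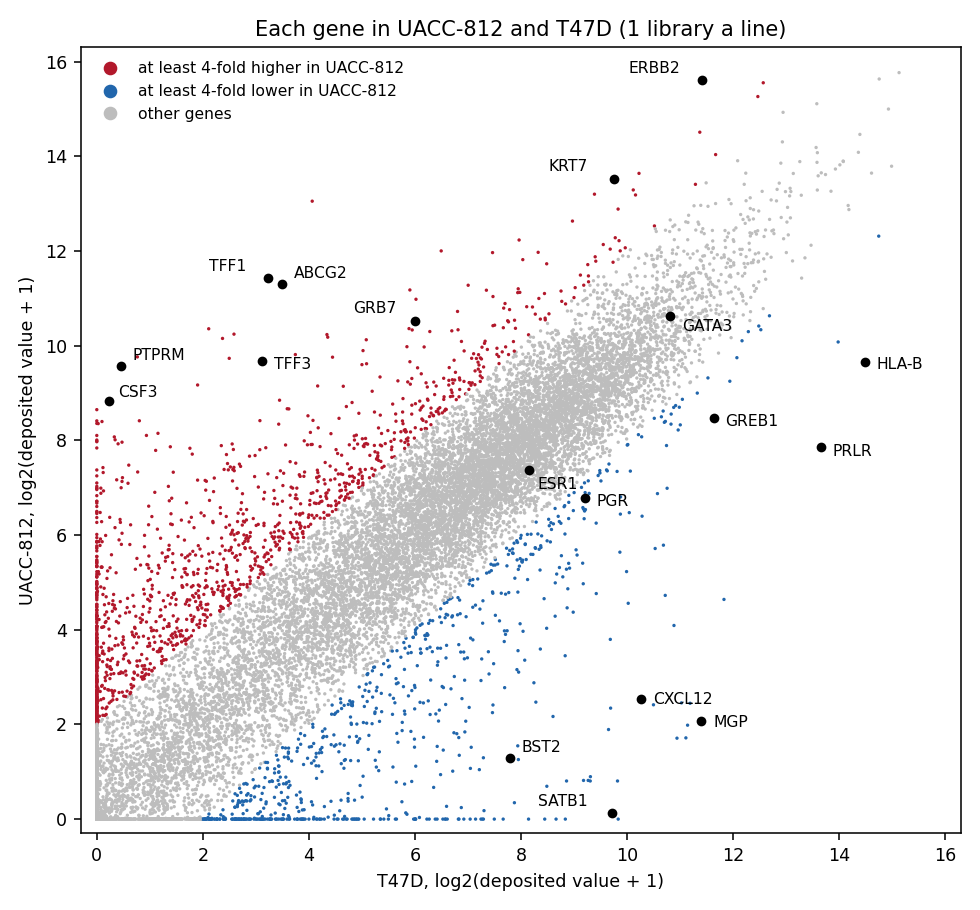
Each point is 1 of 16418 genes, with its log2(deposited value + 1) in T47D on the x axis and in UACC-812 on the y axis, 1 library a line. Red points are the 1342 genes at least 4-fold higher in UACC-812, blue points the 756 at least 4-fold lower, and *ERBB2* stands at the top right above the main cloud.

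The differences moved with the base composition and length of transcripts. The median difference was -0.35 in the 10% of genes with the lowest GC content and 0.52 in the 10% with the highest. It was 0.43 in the 10% of genes with the shortest transcripts and -0.19 in the 10% with the longest. With the median removed within classes of GC content and length, an alternative chosen after seeing the data, 1207 genes were at least 4-fold higher and 797 at least 4-fold lower, and the share of higher genes among them went from 64.0% to 60.2%. The part of composition and length in the gene groups below was not tested, and values with it removed are given where they move a count by more than 1.5 times or turn a sign.

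The 4 other lines, MDA-MB-415, SKBR3, MDA-MB-453 and CAL51, show which line of the pair is unusual for a gene. Of the 1342 genes higher in UACC-812, UACC-812 alone lay more than 0.5 log2 units beyond all 4 others for 621 (46.3%), and T47D alone for 168 (12.5%). Of the 756 genes lower in UACC-812, T47D alone lay beyond all others for 308 (40.7%) and UACC-812 alone for 107 (14.2%). A line cannot lie below others that are at or near 0, so these counts favour the line with the higher value by construction. Counts below of genes where a line was highest or lowest of all lines are given without the share over all genes. They therefore do not show whether a list or run differs from all genes in this respect.

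*ERBB2* was 49826 in UACC-812 and 2745 in T47D, an 18.2-fold difference (log2 difference 4.17). It was 25464 in SKBR3, 6356 in MDA-MB-453, 1621 in CAL51 and 1122 in MDA-MB-415. UACC-812 was the highest of the 6 lines and T47D the fourth.

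The promoter of *ERBB2* is shown with that of *PGAP3*, its neighbour on the opposite strand, because both genes were high together and the windows overlap. Each window holds 250 bases before and 50 after the start given by RefSeq (GRCh38.p14), and the 136 bases that the windows share are in capitals. The *ERBB2* window is chr17:39687844-39688143 on the plus strand, and the *PGAP3* window is chr17:39688008-39688307 on the minus strand.
ERBB2: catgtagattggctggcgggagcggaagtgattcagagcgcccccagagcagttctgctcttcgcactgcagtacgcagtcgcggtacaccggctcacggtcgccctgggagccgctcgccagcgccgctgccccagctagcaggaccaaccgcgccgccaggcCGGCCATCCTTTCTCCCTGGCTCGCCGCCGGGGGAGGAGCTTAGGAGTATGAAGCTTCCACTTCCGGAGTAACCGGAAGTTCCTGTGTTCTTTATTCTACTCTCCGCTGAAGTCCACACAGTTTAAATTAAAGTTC
PGAP3: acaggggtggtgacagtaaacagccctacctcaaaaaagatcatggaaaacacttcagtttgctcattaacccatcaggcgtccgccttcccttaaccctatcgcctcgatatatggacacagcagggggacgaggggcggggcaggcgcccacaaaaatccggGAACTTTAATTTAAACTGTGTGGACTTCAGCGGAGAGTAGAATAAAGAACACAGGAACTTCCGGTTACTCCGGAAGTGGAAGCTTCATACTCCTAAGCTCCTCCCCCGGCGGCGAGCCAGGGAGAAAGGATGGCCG

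*PGAP3*, which remodels the lipid anchor of GPI-linked proteins, was 524 in UACC-812 and 35.6 in T47D (log2 difference 3.83). *GRB7*, an adaptor that binds activated receptor kinases, was 1462 and 62.9 (4.51). *C17orf37*, now named *MIEN1*, was 2018 and 63.9 (4.95). For all 3 genes UACC-812 was above every other line, and SKBR3 was the next highest for *PGAP3*, *GRB7* and *C17orf37* alike, at 104.8, 1106 and 342. *STARD3*, a cholesterol transport protein of late endosomes, was 6342 in UACC-812, 501 in T47D and 2748 in SKBR3.

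The high genes formed a long run in the annotation's order of genes. From *SRCIN1* to *KRT24*, ends that were chosen after the values were seen, 47 genes reached a value of 5 in either line. Of these, 42 were at least 2-fold higher in UACC-812, 34 were at least 4-fold higher, 4 lay within 2-fold, and 1, *STAC2*, was at least 2-fold lower. Their median difference was 2.66, and UACC-812 was the highest of the 6 lines for 39 of the 47. At the first end the change between neighbouring genes was abrupt. *SRCIN1*, a SRC inhibitor, was 951 in UACC-812 and 31.5 in T47D (4.86), and the gene just before it, *ARHGAP23*, was 19.2 and 114.6 (-2.53). The 25 genes before the run had a median of -1.23, with 17 at least 2-fold lower and 1 higher in UACC-812. At the other end single genes varied, with 0.17 at *TOP2A*, -0.16 at *IGFBP4*, 1.30 at *SMARCE1*, 3.30 at *KRT24* and -0.82 at the next gene, *KRT10*. Running medians over 25 genes change gradually at any edge by construction. They were -0.05 at *SOCS7*, 0.13 at *ARHGAP23* and 1.46 at *SRCIN1*, and 2.19 at *IGFBP4*, 1.53 at *SMARCE1* and 1.05 at *KRT10*. These genes, other than *TOP2A* and the ends of the run, were named after their values were seen. The 25 genes after the run had a median of -0.43, with 6 lower and 3 higher. That median lies in a block of nearly tied values, since *KRT9*, *KRT14*, *KRT16*, *KRT17*, *GAST* and *HAP1* all had UACC-812 to T47D ratios between 0.698 and 0.756.

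Other members of the run included genes that nearly all cells use. *RPL19* and *RPL23*, which encode proteins of the large ribosomal subunit, were 48046 and 39270 in UACC-812 and 6074 and 5661 in T47D. *RARA*, the retinoic acid receptor alpha, was 3760 and 674 (2.47). *WIPF2*, an actin regulator, was 785 and 33.0 (4.52). *CSF3*, which encodes the granulocyte growth factor G-CSF, was 452 in UACC-812 and 0.17 in T47D, 20.4 in MDA-MB-415 and below 0.1 in the 3 other lines. *CDK12*, a kinase of transcription elongation, differed less, at 2047 and 886 (1.20), and was highest in SKBR3 at 5385. *TOP2A*, a DNA topoisomerase near the run's end that is used by dividing cells, was 3164 and 2786 (0.17), and SKBR3 was again highest at 10007.

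SKBR3, the other line known to carry *ERBB2* amplification, was not above T47D across the whole run. It was above T47D for 24 of the 47 genes and the highest of all lines for 5. These values were compared as deposited, and the share of all genes with SKBR3 above T47D is not given here. SKBR3 was also below T47D for many genes before and after the run, so the count does not show which genes SKBR3 shares. *PSMB3*, a proteasome subunit named after its values were seen, was 9403 in UACC-812, 668 in T47D and 240.6 in SKBR3. *HSD17B1*, an estradiol-forming enzyme 61 measured genes after *ERBB2* and also named after its values were seen, was 4098 in UACC-812, 89.2 in T47D and 7.10 in SKBR3. The list of genes of the *ERBB2* neighbourhood held 37 measured members, of which 31 were at least 2-fold higher and 1 lower. Over all genes, 21.0% were higher and 15.9% lower. The list's median difference was 2.44, against 0 over all genes by construction.

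**Figure D2:**
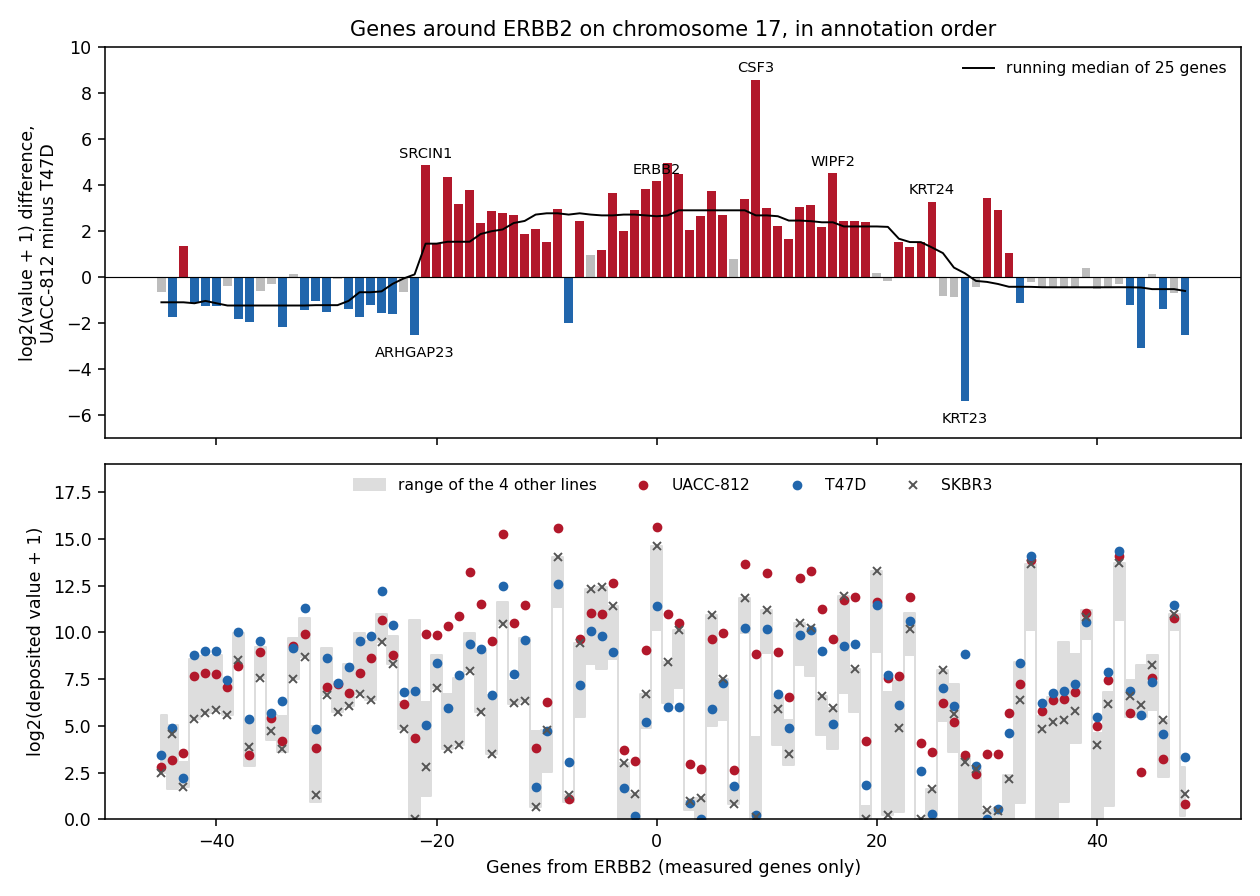
The upper panel shows the log2 difference between UACC-812 and T47D for each measured gene in annotation order around *ERBB2*, which is at 0 on the x axis, with the running median over 25 genes as a line. The lower panel shows log2(deposited value + 1) in UACC-812, T47D and SKBR3 and the range of the 4 other lines as grey bars, and 42 of the 47 genes from *SRCIN1* to *KRT24* were at least 2-fold higher in UACC-812.

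The other ERBB receptors and their ligands were not high together with *ERBB2*. Of 14 measured members, *ERBB2* was the only one at least 2-fold higher in UACC-812, 6 were at least 2-fold lower and the median was -0.60. Over all genes, 21.0% were at least 2-fold higher and 15.9% lower. *ERBB3*, the kinase-impaired partner HER3, was 2269 in UACC-812 and 5430 in T47D (-1.27), and T47D was the highest of the 6 lines. *ERBB4* was 6.60 and 150.7 (-4.33). *EGFR* was nearly equal at 66.8 and 70.9. The ligand gene *EGF* was 9.45 in UACC-812, whose medium held EGF protein, and 121 in T47D (-3.56). *TGFA*, another EGFR ligand, was 4.58 and 11.7 (-1.20). *NRG1* and *NRG2*, ligands of HER3 and HER4, were listed at 0 in both lines.

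Of 23 genes of MAP kinase feedback and response, 10 were at least 2-fold higher in UACC-812 (43.5%, against 21.0% of all genes) and 4 lower (17.4%, against 15.9%), with a median of 0.87. The early response factors *EGR1* and *FOS* were 37.8 and 306 in UACC-812 and 0.66 and 17.1 in T47D. *ETV5*, an ETS factor, was 47.7 and 1.70 (4.16), and the phosphatase gene *DUSP4* was 180.7 and 25.5 (2.77). The 4 lower members, named after their values were seen, were *ETV1* (-1.83), *ETV4* (-1.58), *PHLDA1* (-1.53) and *SPRY2* (-1.08). *ETV1* and *ETV4* were 0.02 and 2.17 in UACC-812 and 2.59 and 8.39 in T47D. *DUSP6*, a widely used readout of ERK activity, was low in both lines, at 3.98 and 2.23. T47D was the lowest of the 6 lines for 8 of the 23 genes and UACC-812 the highest for 2. *EGR1* in T47D, at 0.66, stood against 21.6 to 47.9 in the 5 other lines, so that difference rested on a low T47D value.

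Among ERBB adaptors and negative regulators, 3 of 18 were at least 2-fold higher, the adaptor *GRB7* among them, and 3 lower, or 16.7% each way against 21.0% and 15.9% of all genes. *ERRFI1*, an inhibitor of EGFR and HER2 kinases, was 204.5 in UACC-812 and 34.5 in T47D (2.52). *LRIG1*, which promotes receptor degradation, was 147.7 and 436 (-1.57), and its relative *LRIG3* was 42.1 and 259 (-2.61). *SOCS3*, a feedback inhibitor of cytokine signalling, was 50.8 and 1.57 (4.32). In the PI3K and insulin receptor list, 10 of 25 were higher and 4 lower, against 21.0% and 15.9% of all genes. *INSR*, the insulin receptor, was 153.5 in UACC-812 and 36.2 in T47D (2.04), while *SGK3*, a kinase downstream of PI3K, was 46.7 and 532 (-3.49).

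Of 27 other growth factor receptors and ligands, 7 were at least 2-fold higher and 8 lower, against 21.0% and 15.9% of all genes. The higher share was near that of all genes. *RET* was 92.0 in UACC-812 and 6.09 in T47D (3.70). *FGFR2* was 116.7 and 623 (-2.42), and *FGFR3* was 39.7 and 212 (-2.40). *FGFR1*, at 605 and 149.3 (2.00), and *FGFR4*, at 729 and 282 (1.35), went the other way and were named after their values were seen. *ROR2*, a WNT5A receptor, was 2.61 and 59.7 (-4.08). *IGFBP3*, which binds insulin-like growth factors, was 53.95 in UACC-812 and 0.04 in T47D (5.71), but CAL51 was higher than either at 972.

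*ESR1* was 165.8 in UACC-812 and 284 in T47D (-0.78). It was 83.0 in MDA-MB-415 and below 0.1 in SKBR3, MDA-MB-453 and CAL51, so both members of the pair were in the group of lines with *ESR1* RNA. *FOXA1* was 257 and 191 (0.41), *GATA3* was 1583 and 1796 (-0.19), and *XBP1* was 470 and 387 (0.27). These 4 genes differed by less than 2-fold. *PGR*, the progesterone receptor, was 108.3 in UACC-812 and 586 in T47D (-2.44), and was at most 1.63 in the 4 other lines.

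Estrogen-induced genes split in direction. Of 36 measured, 12 were at least 2-fold higher in UACC-812 (against 21.0% of all genes), 10 lower (against 15.9%) and 14 within 2-fold. Their median of 0.17 turned to -0.14 when GC content and length were taken into account. At the 4-fold limit 6 were higher and 8 lower, against 8.17% and 4.60% of all genes. *TFF1* was 2737 in UACC-812 and 8.34 in T47D (8.19), and at most 5.14 in the 4 other lines. *TFF3*, its relative, was 812.5 and 7.70 (6.54). *HSPB8*, a small heat shock protein, was 1115 and 32.9 (5.03). *GREB1*, a cofactor of the estrogen receptor, was 355 and 3185 (-3.17). *CXCL12*, a chemokine, was 4.84 in UACC-812 and 1235 in T47D (-7.73), and at most 8.45 in the 4 other lines. *AGR3* was 22.6 and 1039 (-5.47), and *SERPINA1* was 0.67 and 54.9 (-5.07). Between them, the lines held the highest value of the 6 for 27 of 36 genes, UACC-812 for 13 and T47D for 14.

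**Figure D3:**
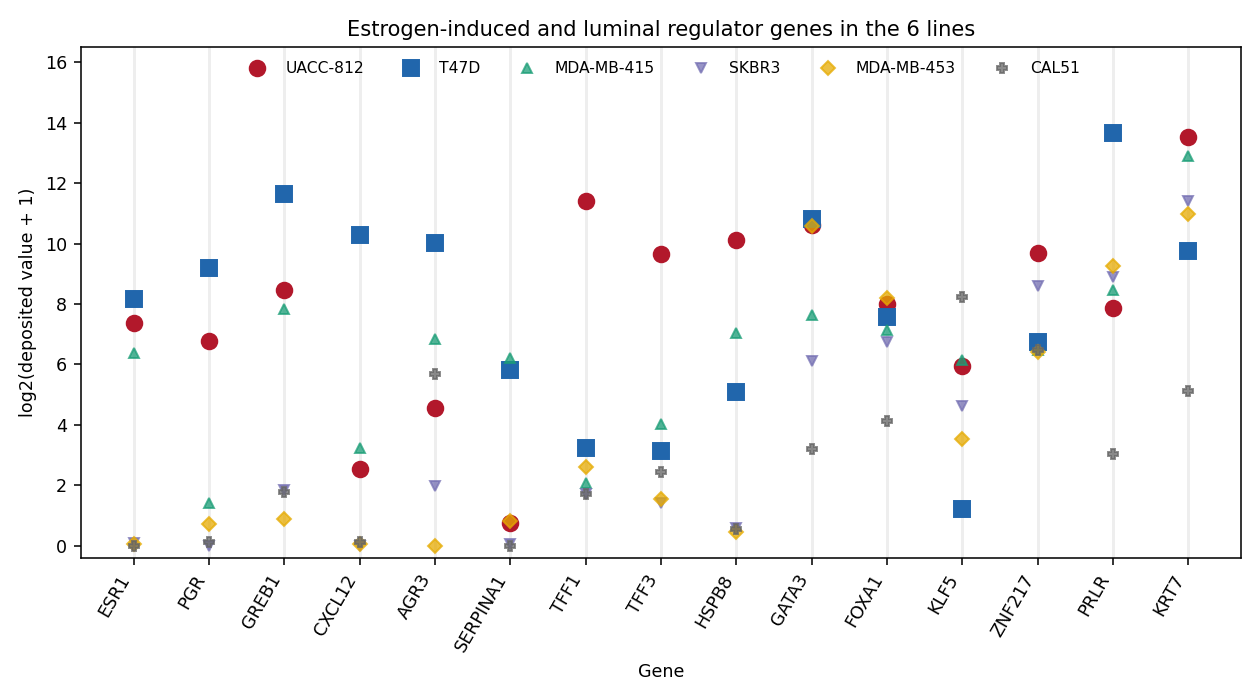
Each point is log2(deposited value + 1) of 1 gene in 1 line, with UACC-812 as red circles, T47D as blue squares and the 4 other lines as smaller symbols. *ESR1*, *GATA3* and *FOXA1* were close in the pair, *TFF1* (2737 and 8.34) was high only in UACC-812, and *CXCL12* (4.84 and 1235) was high only in T47D.

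In the list of steroid receptors and luminal transcription factors, 7 of 25 were at least 2-fold higher and 9 lower. Over all genes the shares were 21.0% and 15.9%, and the list median was -0.03. *KLF5* was 60.1 in UACC-812 and 1.30 in T47D (4.72), where T47D was the lowest of the 6 lines. *TBX3*, a T-box repressor, was 272 and 27.9 (3.23). *ZNF217*, a transcriptional regulator on the long arm of chromosome 20 that is often amplified in breast cancer, was 826 and 105.8 (2.94), and UACC-812 was the highest of the 6. *EHF*, an epithelial ETS factor, was 297 and 1997 (-2.76).

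Both lines carried the RNA of luminal epithelial cells. *KRT8* was 55731 in UACC-812 and 35859 in T47D (0.63), *KRT18* was 22564 and 21485 (0.06), and *KRT19* was 15171 and 17305 (-0.20). *EPCAM* was 1683 and 1329, and the adhesion gene *CDH1* was 2794 and 3978. *VIM*, a mesenchymal intermediate filament gene, was low in both at 23.0 and 28.6, against 2810 in CAL51. None of these 6 genes differed by 2-fold in the pair. Of the 33 luminal genes measured, 14 were at least 2-fold higher in UACC-812 and 4 lower, against 21.0% and 15.9% of all genes. *KRT7*, a simple-epithelial keratin, was 11740 and 866 (3.75), with 7599 in MDA-MB-415 as the next value.

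The prolactin receptor and secreted products of the mammary epithelium differed in both directions. *PRLR*, the prolactin receptor, was 232 in UACC-812 and 12847 in T47D (-5.79), and at most 610 in the 4 other lines. *PIP*, the prolactin-induced protein, was listed at 0 in UACC-812 and 911 in T47D. *SCGB2A2*, which encodes mammaglobin, was 160.1 and 0.71 (6.55). *MUCL1* was 22.1 in UACC-812 and listed at 0 in T47D, as was *LTF*, lactoferrin, at 123.6. *MUC5B* and *MUC2*, gel-forming mucins, were 140.2 and 135.5 in UACC-812 and 4.90 and 0.50 in T47D. In the list of mucins, glycosyltransferases and secreted products, 9 of 25 were higher and 5 lower, against 21.0% and 15.9% of all genes.

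Basal epithelial genes were at least 2-fold higher in UACC-812 for 8 of 27 (29.6%, against 21.0% of all genes) and lower for 4 (14.8%, against 15.9%). Mesenchymal genes were higher for 9 of 23 (39.1%) and lower for 7 (30.4%). UACC-812 was the highest of the 6 lines for 0 genes of either list. *COL6A2*, a collagen, was 181.3 and 4.52 (5.03), and *COL1A1* was 14.8 and 212.6 (-3.77). *CAV2* was 30.1 in UACC-812 and listed at 0 in T47D, and *CAV1* was 11.4 and 0.06, where CAL51 was at 468. *KRT6B* and *KRT6C*, which share nearly all their values, cannot be told apart. They were each 27.6 and 4.23 and count separately among the 8.

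Several families lay in clusters. Among the S100 calcium-binding proteins, 11 of 18 were at least 2-fold higher in UACC-812 and 4 lower, with a median of 1.26. *S100A14* was 849 in UACC-812 and 4.65 in T47D (7.22). *S100A9* and *S100A8*, which form the alarmin calprotectin, were 460 and 36.5 in UACC-812 and 9.90 and 1.05 in T47D. *S100A4*, linked to cell motility, was 21.2 and 81.7 (-1.91). In the HOX list, the 6 members chosen by the size of their difference were all of the HOXB cluster on chromosome 17. *HOXB6* was 58.4 and 2.15 (4.23), *HOXB3* was 73.0 and 5.70 (3.46) and *HOXB7* was 21.1 and 2.73 (2.56). In the same cluster, *HOXB2* went the other way at 10.1 and 23.3 (-1.13). *HOXB13* was low, at 1.13 in UACC-812 and listed at 0 in T47D. *HOXB2* and *HOXB13* were named after their values were seen. Over all 35 HOX genes, 9 were higher (25.7%) and 4 lower (11.4%), near the 21.0% and 15.9% of all genes, and UACC-812 was the highest of the 6 lines for 11.

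Of 52 interferon response genes, 16 were at least 2-fold lower in UACC-812 (30.8%, against 15.9% of all genes), 10 higher (19.2%, against 21.0%) and 26 within 2-fold, with a median of -0.46. *BST2*, tetherin, was 1.44 in UACC-812 and 220.5 in T47D (-6.51). *TRIM22* was 0.29 and 53.0 (-5.40), and the double-stranded RNA sensors *OAS2* and *OAS3* were 0.03 and 18.8 in UACC-812 and 19.6 and 182.1 in T47D. *GBP2*, a guanylate-binding protein, went the other way at 86.2 and 5.78 (3.68), as did *IFITM3* at 80.5 and 6.73 (3.39). UACC-812 was the lowest of the 6 lines for 11 of the 52 genes and T47D for 3, and neither was the highest for any. MDA-MB-415 was above both for *BST2*, *TRIM22*, *OAS2*, *OAS3*, *GBP2* and *IFITM3*.

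MHC class I antigen presentation was at least 2-fold lower for 8 of 22 genes and higher for 3, against 15.9% and 21.0% of all genes. *HLA-B* was 808 in UACC-812 and 22970.2 in T47D (-4.84), and *HLA-C* was 1080 and 16172 (-3.91). These genes are close copies that differ between people, so the split of reads among them is uncertain. *PSMB8* and *PSMB9*, subunits of the immunoproteasome, were 7.07 and 0.26 in UACC-812 and 106.1 and 10.9 in T47D. *ERAP2*, a peptide-trimming enzyme, was 2.58 and 121.9 (-5.11). *B2M*, the shared light chain, named after its values were seen, differed by less than 2-fold at 1810.4 and 1282. For class II, 0 of 14 genes were higher and 5 lower, among them *HLA-DRB1* at 3.64 and 46.7 (-3.37) and the class II activator *CIITA* at 1.07 and 6.88 (-1.94).

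*TAP1*, which encodes a subunit of the peptide transporter for class I, was 53.8 in UACC-812 and 177.7 in T47D (-1.72). It was also named after its values were seen. The promoters of *BST2*, from the interferon list, and of *TAP1*, from the class I list, are shown. Both hold the core of the interferon-stimulated response element, GAAANNGAAA. Matches on either strand are in capitals and overlap in both windows. The *BST2* window is chr19:17405581-17405880 and the *TAP1* window chr6:32853655-32853954, both on the minus strand and both from RefSeq (GRCh38.p14), read 5′ to 3′ along the gene.
BST2: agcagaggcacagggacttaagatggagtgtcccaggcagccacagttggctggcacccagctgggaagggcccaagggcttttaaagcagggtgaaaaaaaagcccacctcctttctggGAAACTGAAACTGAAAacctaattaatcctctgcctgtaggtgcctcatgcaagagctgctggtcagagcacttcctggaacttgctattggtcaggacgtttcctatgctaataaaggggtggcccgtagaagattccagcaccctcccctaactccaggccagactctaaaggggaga
TAP1: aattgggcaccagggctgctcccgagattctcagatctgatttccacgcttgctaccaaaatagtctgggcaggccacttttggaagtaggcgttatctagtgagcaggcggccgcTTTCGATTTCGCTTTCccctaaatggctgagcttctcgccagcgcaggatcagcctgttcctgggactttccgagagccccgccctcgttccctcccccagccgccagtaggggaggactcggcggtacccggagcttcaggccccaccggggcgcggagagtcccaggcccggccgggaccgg

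The letters occurred in 996 of 27305 promoters of the same length (3.65%) and in 27 of 41 matched interferon response genes. They were in 8 of the 11 matched members that were at least 2-fold lower in UACC-812 and in 7 of the 9 that were at least 2-fold higher. For MHC class I they were in 9 of 18 matched promoters. Of these 18, they were in 2 of the 7 members at least 2-fold lower in UACC-812, *TAP1* among them, and in 0 of the 2 higher. For class II they were in 0 of 11. A match is a description of the letters and not of binding.

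Inflammatory genes of the TNF and NF-kB list were at least 2-fold higher in UACC-812 for 14 of 35 and lower for 3. For this list and those that follow here, the shares of all genes were 21.0% and 15.9%. *LIF*, a cytokine of the interleukin-6 family, was 10.3 and 0.08 (3.39), and *CCL28*, a mucosal chemokine, was 81.3 and 27.8 (1.51). Checkpoint and natural killer ligands were higher for 9 of 21 and lower for 2. The NKG2D ligands *ULBP2* and *MICA* were 64.9 and 155.8 in UACC-812 and 8.74 and 39.3 in T47D. In the cell death list, 9 of 27 were higher and 6 lower. *BAK1*, a pore-forming effector of mitochondrial apoptosis, was 261 and 31.2 (3.01), while the necroptosis effector *MLKL* was 1.33 and 84.0 (-5.20). *FAS* was 5.16 and 45.2 (-2.92), and *TNFSF10*, the death ligand TRAIL, was 1.03 and 38.9 (-4.30).

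Genes of glycolysis and hypoxia were higher in UACC-812 for 18 of 36 (50.0%, against 21.0% of all genes). They were lower for 1 (against 15.9% of all genes), with a median of 1.08. T47D was the lowest of the 6 lines for 15 of the 36, and the share over all genes is not given here. *GAPDH*, the glycolytic enzyme often taken as a loading control, was 31167 in UACC-812 and 7871 in T47D (1.97), whereas *ACTB* was 12853 and 12970. *SLC2A1*, the glucose transporter GLUT1, was 573 and 132.1 (2.10), and *TPI1* was 1630 and 368 (2.13). *LDHB*, a lactate dehydrogenase subunit, was 610 and 50.2 (3.57). *NDRG1*, a hypoxia-induced gene, was 864 and 20.8 (5.30), and *EGLN3*, an oxygen-sensing hydroxylase, was 53.5 and 4.16 (3.39).

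Detoxification genes were higher for 15 of 31 and lower for 4, against 21.0% and 15.9% of all genes. The list median was 0.98. *HMOX1*, haem oxygenase, was 155.8 in UACC-812 and 8.37 in T47D (4.05), and *ABCC3*, an efflux pump, was 774 and 31.0 (4.59). *ME1*, cytosolic malic enzyme, was 252 in UACC-812 and listed at 0 in T47D, and reached 1735 in MDA-MB-415. *GSTM2* went the other way at 13.9 and 208 (-3.82). *GSTT1* was 73.4 and 0.97 (5.23).

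Ribosomal protein genes were at least 2-fold higher in UACC-812 for 22 of 54 and lower for 0, against 21.0% and 15.9% of all genes. The list median was 0.74. UACC-812 was the highest of the 6 lines for 37. *RPS2* was 11099 and 2879 (1.94) and *RPLP2* was 5659 and 1481 (1.92). The median transcript length of this list was 2033 bases, and all genes with transcripts of 1520 to 2090 bases had a median difference of 0.24. Respiratory chain genes were higher for 14 of 50 and lower for 4, against the same shares of all genes. *COX6C* was 4013 in UACC-812 and 319 in T47D (3.64), and at most 436 in the 4 other lines. Endoplasmic reticulum stress and amino acid response genes were higher for 10 of 24 (41.7%, against 21.0% of all genes), a count that was 6 when GC content and length were taken into account. In this list 2 were lower, *PSAT1* (-7.67), listed at 0 in UACC-812, and the chaperone gene *HSPA5* (-1.10), named after its values were seen. *DDIT4*, an inhibitor of mTORC1, was 155.8 and 23.3 (2.68).

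Mitotic genes and lipid synthesis leaned the other way. Of 34 proliferation genes, 0 were at least 2-fold higher and 10 lower, against 21.0% and 15.9% of all genes. The list median was -0.49. *TPX2*, a spindle assembly factor, was 269 in UACC-812 and 1239 in T47D (-2.21). *KIF11*, a spindle motor, was 298 and 1014 (-1.77), and the cyclin gene *CCNA2* was 34.5 and 116.9 (-1.74). *MKI67*, the Ki-67 gene, was nearly equal at 163.7 and 140.3. MDA-MB-453, SKBR3 and CAL51 were above both lines for *TPX2*, *KIF11* and *CCNA2*. Of 30 genes of cholesterol and fatty acid synthesis, 8 were lower and 3 higher, against 15.9% and 21.0% of all genes. *SCD*, the stearoyl-CoA desaturase, was 91.9 and 593 (-2.69), while *FDPS*, an enzyme of the mevalonate pathway, was 4100 and 935 (2.12).

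Among G1 regulators, 6 of 22 were higher and 2 lower, against 21.0% and 15.9% of all genes. *CCND1*, cyclin D1, was 455 in UACC-812 and 191.6 in T47D (1.23). *CDKN1A*, the p21 inhibitor, was 198.6 and 46.3 (2.07), and *CDKN2A*, the p16 and ARF locus, was 2.41 and 34.1 (-3.37). Among junction genes, 21 of 29 lay within 2-fold. *CTNND2* was 104 in UACC-812 and listed at 0 in T47D. Metallothioneins were low in both lines, with 2 of 10 higher and 2 lower, and *MT2A* at 12.3 and 37.7.

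**Figure D4:**
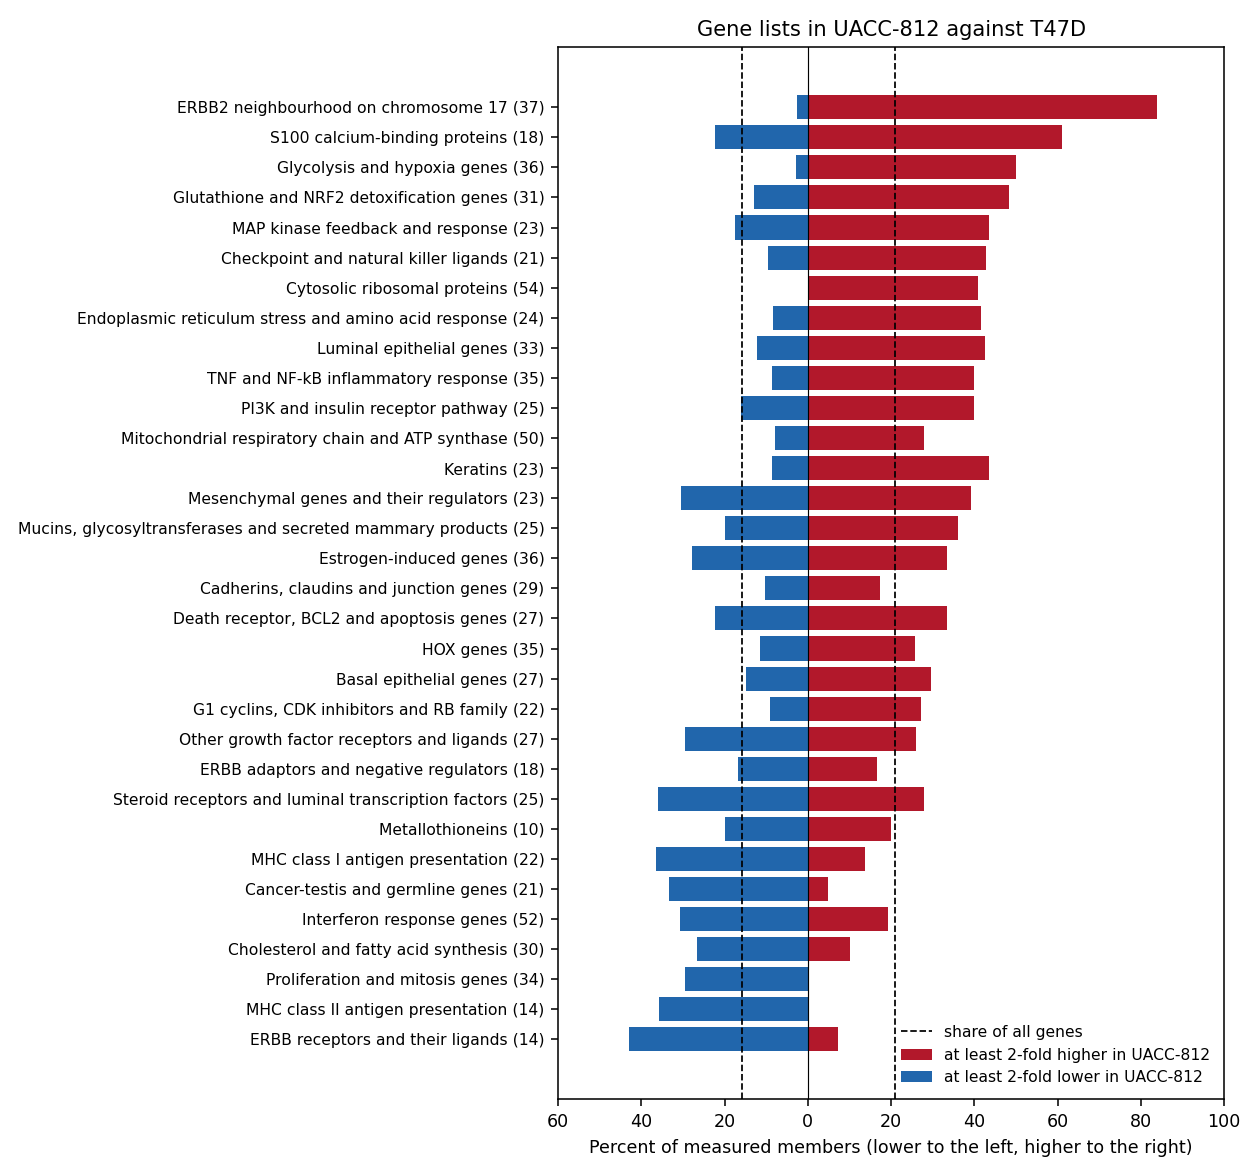
Bars give the percent of measured members of each list at least 2-fold higher (right, red) or lower (left, blue) in UACC-812 than in T47D, with the number measured in brackets and lists in order of their median difference. Dashed lines mark the shares over all genes, 21.0% higher and 15.9% lower, and the *ERBB2* neighbourhood (83.8% higher) stands at the top.

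Beyond the lists, the largest differences were in genes of varied function. Genes above 0 in both lines with the highest differences were *PTPRM*, a receptor phosphatase, at 759 in UACC-812 and 0.37 in T47D (9.10), and *PGM5*, a protein of cell-matrix junctions, at 867 and 0.70 (8.99). CAL51 was above UACC-812 for both, at 1027 and 2047. *C20orf114*, a secreted airway protein, was 8489 and 15.7 (8.98), but MDA-MB-415 held 75606. *ABCG2*, the drug efflux pump, was 2540 and 10.3 (7.80), with 82.0 as the highest value elsewhere. *FBLN2* and *FBLN1*, fibulins of the extracellular matrix, were 1310 and 1211 in UACC-812 and 3.32 and 5.01 in T47D. *PEG3*, an imprinted gene, was 326 and 0.02 (8.32). *ZIM2*, which shares exons with *PEG3*, was 274 in UACC-812 and listed at 0 in T47D. Of genes listed at 0 in T47D, *AMBP* had the highest value in UACC-812 at 400, and the neighbours *TMEM176A* and *TMEM176B* were at 339 and 256.

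Low in UACC-812 were *SATB1*, a chromatin organiser, at 0.09 against 838 in T47D (-9.60), and *MGP*, a calcification inhibitor, at 3.19 against 2707 (-9.35). *PLS3*, an actin-bundling protein, was 4.33 and 1446 (-8.09), and was at least 388 in the 4 other lines, so that UACC-812 was the exception. *SATB1* ran from 1.75 to 70.8 in the 4 other lines, so that both lines of the pair lay beyond them. *SULF1*, a heparan sulfate editor, was 282 in T47D and listed at 0 in UACC-812, as was *TNIK*, a kinase of the WNT pathway, at 404. *PSAT1*, an enzyme of serine synthesis, was 201.8 in T47D and listed at 0 in UACC-812.

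Some cancer-testis genes were far higher in T47D than in UACC-812. Of the 15 genes with the lowest differences among those above 0 in both lines and reaching 20, 10 were GAGE genes, near-identical copies whose reads cannot be assigned with certainty. Over the 12 GAGE genes measured, values ran from 0 to 4.48 in UACC-812 (median 1.52) and from 150.7 to 2333 in T47D (median 853). In SKBR3 their median was 26.6, it was 3.12 in MDA-MB-415, and all 12 were listed at 0 in CAL51 and MDA-MB-453. *CT45A1* and *XAGE1D* were 120.3 and 63.5 in T47D and listed at 0 in UACC-812, and *PRAME* was 4.48 in UACC-812 and 70.5 in T47D (-3.72). T47D was not the highest line for *XAGE1D* or *PRAME*, which were 198.9 in SKBR3 and 101.2 in MDA-MB-415. Of 21 genes in the cancer-testis list, 7 were at least 2-fold lower in UACC-812 and 1 higher, against 15.9% and 21.0% of all genes. The higher gene was *SYCP2*, at 8180 and 3988 (1.03), and T47D was the highest of the 6 lines for 3 of the 21.

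Runs of neighbouring genes that differ together were found along other chromosomes. Running medians over 25 genes were at least 2-fold higher in UACC-812 at 5.64% of 12444 positions and at least 2-fold lower at 2.16%, in 48 and 40 separate stretches. The stretches were defined by these running medians, so counts of genes in the same direction within them were high by construction. Over all genes the 2-fold shares were 21.0% higher and 15.9% lower. The highest was at *GRB7* (2.91). On chromosome 13 the running median reached 2.65 at *MYCBP2*, in a stretch from *ALG11* to *UBAC2* where 27 of 51 genes were at least 2-fold higher, 5 were lower and *DZIP1* differed most (242 and 0.32, 7.51). On chromosome 2 it reached 2.33 at *USP40*, in a stretch from *SNORA75* to *GPC1* with 27 of 51 genes higher and 1 lower, led by *ALPP* (257 and 0.27, 7.66). On chromosome 20 it reached 1.76 at *STX16*, with 48 of 81 genes higher and 1 lower between *TMEM189-UBE2V1* and *ZGPAT*. On chromosome 12 it reached 2.89 at *KRT6A* within the keratin cluster, but values there were low and partly shared. *KRT71*, *KRT72* and *KRT74* each held 6.49 in UACC-812 and were listed at 0 in T47D, so this stretch is uncertain. A peak on chromosome 1 of 1.57, at *S100A10*, covered the S100 cluster described above.

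Stretches lower in UACC-812 were shallower. The lowest running medians were -1.54 at *TTLL11* on chromosome 9, -1.54 at *ACTL6A* on chromosome 3 and -1.48 at *EDARADD* on chromosome 1. *TNIK* lay in the chromosome 3 stretch. Whole chromosomes differed too. The median difference was 0.61 over 954 genes of chromosome 19 and 0.55 over 328 of chromosome 22, and went to 0.42 and 0.32 with GC content and length taken into account. It was -0.34 over 531 genes of chromosome 9 and -0.33 over 742 of chromosome 11, and went to -0.44 and -0.43. It was 0.54 over 441 genes of chromosome X and -0.36 over 427 of chromosome 14, and went to 0.50 and -0.29. Over chromosome 17 as a whole it was -0.02, although the *ERBB2* run lies there.

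**Figure D5:**
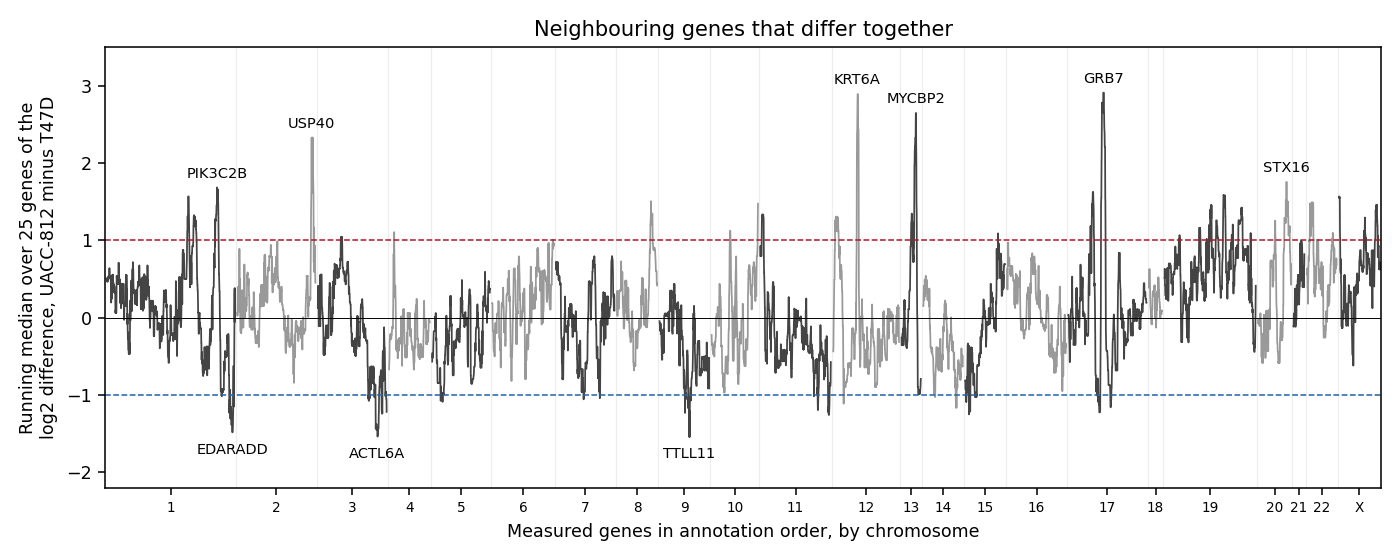
The line is the running median over 25 neighbouring genes of the log2 difference between UACC-812 and T47D, with genes in annotation order and chromosomes alternating in grey. Dashed lines mark 2-fold, and named peaks include *GRB7* at 2.91, *KRT6A* at 2.89, *MYCBP2* at 2.65 and *TTLL11* at -1.54.

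Markers of cells that a line should not hold were checked. *PTPRC*, the pan-leukocyte gene, and *DCN*, a fibroblast gene, were listed at 0 in both lines. Of 12 leukocyte markers, 6 were below 1 in UACC-812 and 9 in T47D. Of 10 stromal markers, 6 were below 1 in each line, and the sum was 392 and 497. *PDGFRA* gave 368 and 275 of that sum, and *COL1A1* gave 14.8 and 212.6. The part of all these markers in the differences above was not tested.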

How the data were processed

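RNA was sequenced as single-end reads from 6 cell lines, 1 library a line, and the libraries of UACC-812 and T47D were compared. The submitters' processing notes name the build hg19 and the tools RSEM and CASAVA 1.8, without saying what each did; the annotation, filters and alignment settings are not given in the sources used here. The authors deposited 1 value per gene and line. No label states the unit. It was read from the deposited values as RPKM, apparently summed over exons, since values of single-exon genes stepped by 1 constant divided by gene length (25.4% of 303 values in UACC-812 and 24.1% of 295 in T47D were whole within 0.01 reads, against medians of 1.98% and 1.69% over other constants). Those constants gave the depths, and intervals were not computed because reads per gene could not be recovered. No count model was therefore used.

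Of 16444 genes, 22 with names turned into dates and 4 entries sharing 2 names were left out. The difference of log2(value + 1) was taken per gene, UACC-812 minus T47D, and the median over all genes was subtracted; a pseudocount of 1 understates differences of low genes. Groups came from the labels. With 1 library a side nothing was tested, and the limits are 2-fold and 4-fold. Of the gene names, 15929 matched a reference of a later build (GRCh38.p14), used for gene order and promoters only; GC content and length are those of each gene's longest GENCODE transcript.

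The pair, the 34 gene lists and the naming rule were chosen with earlier results of these data known. The rule names the 15 highest and 15 lowest differences among genes above 0 in both lines and reaching 20, the 8 highest genes in each line that are listed at 0 in the other, up to 6 members of each list with the largest difference among those reaching 5, a fixed set of receptor, luminal and housekeeping genes, and the ends and largest member of stretches. Other genes, such as *NRG1*, *NRG2* and *KRT71*, were named after their values were seen. Some genes that the rule names are not reported here. Alternatives were pseudocounts of 0.1 and 5, centring on high genes or a trimmed mean, a filter on a mean of 5, windows of 15 and 41 genes, other margins, and medians removed within GC and length classes, the last chosen after seeing the data. Python 3.11.15, pandas 2.3.3 and NumPy 2.4.6 were used, and the steps were tested on simulated data.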

Additional observations from a re-analysis of the deposited data

How the results depend on the processing

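Of 2007 values of 252 named genes over 8 settings, 1 changed sign, that of *KRT18*, from 0.06 to -0.20 with medians removed within GC and length classes, and 202 moved by 1.5-fold or more, 82 with a pseudocount of 0.1 and 120 with a pseudocount of 5. Of 272 list medians, 270 moved by less than 1.5-fold. Genes at least 4-fold lower in UACC-812 numbered 1184 with a pseudocount of 0.1 and 420 with 5, and genes at least 4-fold higher 804 with 5; a larger pseudocount shrinks differences of low genes by construction. The cancer-testis median was -1.07 with a pseudocount of 0.1, and the leukocyte median was 0.72 among genes with a mean of at least 5, which leaves fewer members. Stretches numbered 92 higher and 75 lower over 15 genes and 26 and 10 over 41 genes. The cause was not tested. With a margin of 0, 214 of the genes 4-fold lower had neither line beyond the others. No paired analysis was possible because each line had 1 library. Without replicates the spread within a line is unknown, and 3 reads in an exon of 150 bases were worth 0.781 in UACC-812 and 0.685 in T47D.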
